A study of Mus musculus with 145 samples.

Results

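Skin that had received the highest of 4 ultraviolet doses, 40 mJ/cm2, was set directly against skin that had received the next lower dose, 20 mJ/cm2, 72 h after exposure. The comparison is between 10 of the 145 libraries of the study, chosen by their labels for dose and time. Of these, 5 were of dorsal skin after 40 mJ/cm2 and 5 of dorsal skin after 20 mJ/cm2. The test took its estimate of spread from all 25 libraries of 72 h, which include sham skin and skin after 5 and 10 mJ/cm2. In a fit of the 10 libraries alone 0 genes passed. Each library is poly(A) RNA from the dorsal skin of 1 mouse, so n is 5 animals in each group. Each mouse was exposed once, beneath a canopy sold for tanning with 8 lamps (100 W each) that gave 96.4% UVA and 3.6% UVB. The 5 sham mice taken at 72 h were handled alike without ultraviolet light and give the level of unexposed skin. The labels name no strain, sex or age for the mice. The comparison asks whether skin at 72 h still carried a response after 40 mJ/cm2 that was no longer seen, or was never as large, after 20 mJ/cm2.

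Ultraviolet light damages the DNA and membranes of keratinocytes, the cells that make up the epidermis. Injured keratinocytes switch from the keratins of resting skin to those of wounded skin, release alarm proteins and cytokines, and attract neutrophils and monocytes from the blood. The dermis below answers with matrix proteins and proteases that rebuild tissue, and Langerhans cells, the antigen-presenting cells of the epidermis, are known to leave or be lost after ultraviolet exposure. All of this is background to the values that follow.

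The deposited values are expected counts per gene, and levels are given here as CPM (counts relative to the library's total) on library sizes scaled by the TMM method of edgeR. Total counts ran from 3.13 to 10.4 M after 40 mJ/cm2, from 3.88 to 19.2 M after 20 mJ/cm2 and from 4.15 to 19.1 M in sham skin. All 10 libraries held the keratins and collagens of skin, although the basal keratin Krt14 ran from 80.5 to 7090 CPM among them. Mitochondrially encoded genes took 4.07 ± 2.89% of the counts after 40 mJ/cm2 and 5.55 ± 4.79% after 20 mJ/cm2 (SD, n = 5 each), a difference of -1.47 percentage points (exact two-sided permutation test, p = 0.563). The highest share in each group was that of replicate 3, with 9.01% after 40 mJ/cm2, 14% after 20 mJ/cm2 and 12% in sham skin. Replicate 3 also had the lowest Krt14 level of each of these 3 groups, with 248 CPM after 40 mJ/cm2, 80.5 CPM after 20 mJ/cm2 and 102 CPM in sham skin. The mean log2 CPM of 23 skeletal muscle genes ran from 8.69 to 11.41 after 40 mJ/cm2 and from 9.63 to 10.92 after 20 mJ/cm2, so the amount of muscle RNA differed between animals within both groups. Replicate numbers were given in accession order and were not used to pair animals, and whether libraries of the same number share a processing step was not tested.

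At 72 h, the genes higher after 40 than after 20 mJ/cm2 included single members of wounded epidermis (Krt6a, Krt16), alarm and acute phase proteins (S100a9, Saa3), neutrophils (Cxcr2), wound matrix (Tnc) and glutathione metabolism (Slc7a11), while most measured members of these lists did not pass. edgeR called 40 of 16794 genes at an adjusted p under 0.05, which is 0.238% of those tested. Of these, 34 rose (0.202% of the genes tested) and 6 fell (0.0357%), all by more than 2-fold. The median log2 fold change of the genes that rose was 4.56, with a range of 1.07 to 9.65, and that of the genes that fell was -1.85, with a range of -2.74 to -1.12. Over all genes tested the median was 0.014. At an unadjusted p under 0.05 the count was 1238 genes (7.37%). Fold changes are log2 values of 40 over 20 mJ/cm2 with their SE.

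The 5 animals after 40 mJ/cm2 differed widely from each other. Relative to the mean of sham skin, the median log2 level of the 34 risen genes was 5.27, 3.09, 1.47, 6.05 and 0.83 in replicates 1 to 5 after 40 mJ/cm2. In replicates 1 to 5 after 20 mJ/cm2 it was -0.25, 0.51, -0.08, 0.05 and 0.39. Replicates 1 and 4 thus held by far the highest levels, replicate 2 stood between, and replicates 3 and 5 stood closest to sham skin. Replicates 1, 2 and 4 were above the highest 20 mJ/cm2 animal for all 34 genes, replicate 3 for 25 of them and replicate 5 for 20. The groups did not overlap for 16 of the 34 risen genes, where 0.548% of all genes tested had every 40 mJ/cm2 animal above every 20 mJ/cm2 animal. For all 6 fallen genes every 40 mJ/cm2 animal was below every 20 mJ/cm2 animal, against 0.5% of all genes tested. The spread between animals was also wider over all genes. The median SD on the log2 CPM scale was 0.65 after 40 mJ/cm2, 0.57 after 20 mJ/cm2 and 0.49 in sham skin. It was 0.58 after 10 mJ/cm2 and 0.45 after 5 mJ/cm2, whose libraries share in the estimate of spread.

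**Figure D1:**
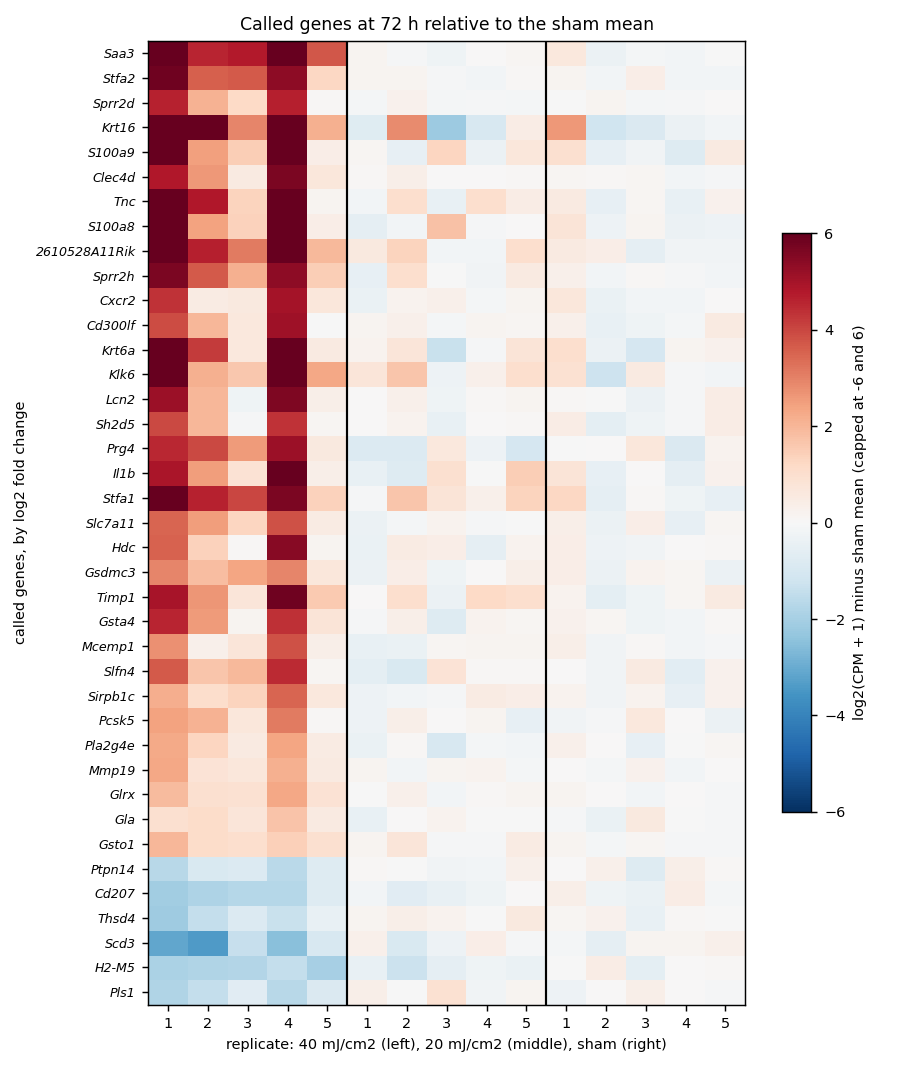
Level of all but 1 of the 40 called genes (rows, ordered by log2 fold change) in each animal at 72 h (columns), as log2(CPM + 1) minus the mean of the 5 sham libraries, with colours capped at -6 and 6. The risen genes are darkest in replicates 1 and 4 after 40 mJ/cm2 and palest in replicates 3 and 5, while the 20 mJ/cm2 and sham columns look alike.

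The number of calls depended on single animals and on the test. It fell to 2 to 6 without any 1 of the 20 mJ/cm2 animals and to 3 without 40 mJ/cm2 replicate 1 or replicate 4, and it was 58, 170 and 234 without 40 mJ/cm2 replicate 2, 3 or 5. Within the libraries whose titles end in R1_001 (2 per group) edgeR called 3 genes and within those that end in R1 (3 per group) 0, with 389 at an unadjusted p under 0.05. The 3 were Prg4, which is 1 of the 40, and Ptprz1 and Gm49428, which are not. These 3 were named after their values were seen, and the sources do not say what the endings mark. DESeq2 called 241 of 16743 genes, 160 up and 81 down. Among them were 33 of the 40, and Krt16, S100a9, Tnc and Lcn2 were given no adjusted p. With sample weights, limma voom called 3949 of 16794 genes, 2010 up and 1939 down, among them all 40. In a fit of the 10 libraries alone edgeR called 0 (790 at an unadjusted p under 0.05). Every one of the 40 genes kept its direction in each of these fits, and Saa3 and Prg4 were called in all 10 fits without 1 library.

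Keratins and cornified envelope genes of wounded epidermis were among the largest rises. Krt6a, a keratin that keratinocytes make after wounding, had 5080, 1370, 114, 5550 and 108 CPM in the 5 animals after 40 mJ/cm2, against 86.9, 122, 28.5, 69.8 and 126 CPM after 20 mJ/cm2. Replicates 1, 2 and 4 stood far above every 20 mJ/cm2 animal, and replicates 3 and 5 lay within their range. The log2 fold change was 4.81 ± 0.90 (edgeR adjusted p = 0.0259). Krt16, the partner with which Krt6 keratins form filaments, had 3360, 609, 71.5, 4010 and 41 CPM after 40 mJ/cm2 and 4.91, 67.4, 1.14, 4.04 and 12.3 CPM after 20 mJ/cm2. It rose by 6.86 ± 1.46 (adjusted p = 0.0465), and the groups overlapped at replicate 5. Reads of Krt6a and its near copy Krt6b cannot be fully told apart. Of the 19 measured stress keratins and alarm genes of keratinocytes, 4 rose (0.202% of all genes rose) and 0 fell, with a median log2 fold change of 2.95. The other 2 that rose were S100a8 and S100a9, described with the myeloid genes below. Hbegf, a growth factor that drives keratinocyte migration, averaged 27.4 ± 19.6 CPM after 40 mJ/cm2 and 8.06 ± 2.68 CPM after 20 mJ/cm2 (SD, n = 5 each) and missed the threshold (adjusted p = 0.0579).

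**Figure D2:**
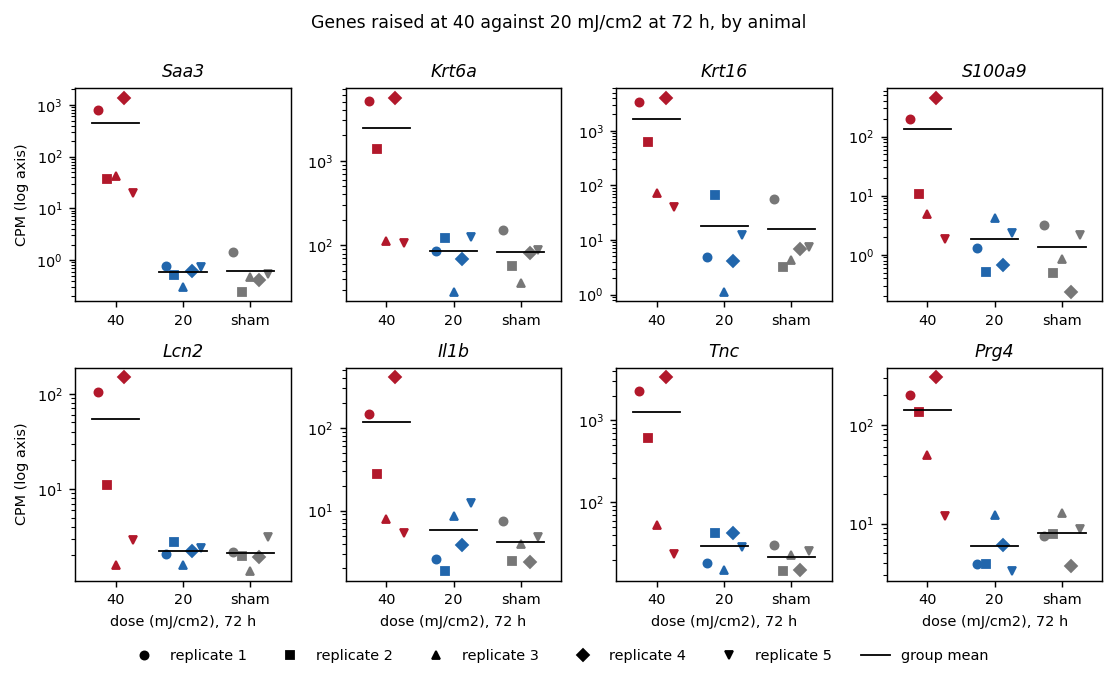
CPM on a log axis of 8 genes that rose, for each animal after 40 mJ/cm2, after 20 mJ/cm2 and in sham skin at 72 h (points, 1 symbol per replicate number) with the group mean (line). In each panel replicates 1 and 4 after 40 mJ/cm2 are the highest points, and the 20 mJ/cm2 and sham animals overlap.

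The small proline-rich genes, which encode cross-linked precursors of the cornified envelope, and the stefin A genes, which encode cysteine protease inhibitors of epidermis and neutrophils, each held 2 genes that rose. Of 16 small proline-rich genes 9 were below the filter, and of the 7 measured 2 rose (0.202% of all genes rose), Sprr2d and Sprr2h. The median log2 fold change over the 7 was 4.94. The filter keeps a gene that is high in 1 dose group alone. Medians over the measured members of a list are therefore not those of its whole family. Sprr2h had 69.4, 17.1, 5.17, 56.6 and 2.93 CPM after 40 mJ/cm2, against 0, 1.79, 0.379, 0.205 and 1.01 CPM after 20 mJ/cm2. The groups did not overlap, and the log2 fold change was 5.35 ± 1.07 (edgeR adjusted p = 0.0368). Sprr2d had 25.8, 3.71, 1.48, 27.2 and 0.154 CPM after 40 mJ/cm2 and at most 0.32 CPM after 20 mJ/cm2, where 3 of the 5 libraries were at 0. Sprr1b averaged 148 ± 167 CPM after 40 mJ/cm2 and 2.66 ± 5.39 CPM after 20 mJ/cm2 (SD, n = 5 each) and was not called (adjusted p = 0.07). Of 9 stefin A genes 3 were below the filter, and of the 6 measured 2 rose, Stfa1 and Stfa2, with a median of 4.25. Stfa2 had 63.6, 12.5, 13.7, 46 and 1.69 CPM after 40 mJ/cm2, against 0.258, 0.256, 0.0757, 0 and 0.183 CPM after 20 mJ/cm2, with no overlap and a log2 fold change of 7.56 ± 1.24 (adjusted p = 0.0151). Stfa1 rose by 4.34 ± 0.87 (adjusted p = 0.0368). Members of the Sprr2 and the stefin A families are near-identical in sequence, so the share of reads given to single members is uncertain.

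Klk6, a kallikrein peptidase of differentiating and inflamed epidermis, had 161, 9.41, 6.23, 199 and 10.6 CPM after 40 mJ/cm2, against 2.84, 6.4, 0.909, 1.89 and 3.76 CPM after 20 mJ/cm2. It rose by 4.63 ± 0.98 (edgeR adjusted p = 0.0462). It was the 1 of 12 measured kallikreins and epidermal serpins that passed (0.202% of all genes rose), with a median of 1.19 over the 12. Klk13, another kallikrein, had a log2 fold change of 3.69 ± 0.81 with adjusted p = 0.0536. By contrast, 0 of 24 genes of epidermal differentiation and barrier and 0 of 15 late cornified envelope genes passed, with medians of 0.49 and 0.21. For these 24 and 15 genes DESeq2 called 1 up and 1 down, and 0 in either direction. Over all 16743 genes DESeq2 called 160 up and 81 down. At an unadjusted edgeR p under 0.05 the counts were 4 and 0 (7.37% of all genes). Rptn, the cornified envelope gene repetin, averaged 73.7 ± 56.6 CPM after 40 mJ/cm2 and 1.42 ± 1.16 CPM after 20 mJ/cm2 (SD, n = 5 each) but was not called (adjusted p = 0.0628).

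The acute phase gene Saa3, which encodes a serum amyloid A protein made in inflamed tissue, had the largest and the firmest rise. It had 788, 37.1, 41.8, 1380 and 19.7 CPM in the 5 animals after 40 mJ/cm2, against 0.775, 0.512, 0.303, 0.614 and 0.733 CPM after 20 mJ/cm2. Sham animals held 1.45, 0.247, 0.477, 0.419 and 0.536 CPM. The lowest animal after 40 mJ/cm2 was thus far above the highest animal of both other groups, and the log2 fold change was 9.65 ± 1.28 (95% interval 6.99 to 12.3, edgeR adjusted p = 0.00246). Lcn2, an iron-binding antimicrobial protein of keratinocytes and neutrophils, had 105, 11.1, 1.58, 149 and 2.93 CPM after 40 mJ/cm2, against 2.07, 2.75, 1.59, 2.2 and 2.38 CPM after 20 mJ/cm2. It rose by 4.61 ± 0.86 (adjusted p = 0.0259), with replicate 3 below the lowest 20 mJ/cm2 animal. Of 15 acute phase and antimicrobial genes 7 were below the filter. Of the 8 measured these 2 rose (0.202% of all genes rose) and 0 fell, with a median log2 fold change of 2.01. Haptoglobin, Hp, averaged 829 ± 920 CPM after 40 mJ/cm2 and 82.8 ± 68.2 CPM after 20 mJ/cm2 (SD, n = 5 each) and was not called (adjusted p = 0.16).

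Promoters of 4 risen genes are shown as examples, picked for a single match to a motif of inflammatory or epidermal transcription factors. Each is the 250 bases before the transcription start in RefSeq on GRCm38.p6, read 5′ to 3′ on the gene's strand, with the match in capitals. In the first 3 it is a match to TTGCNNAA, bound by C/EBP factors, and in the last to TGANTCA, bound by AP-1, searched on both strands. Matches to the other motifs searched, some of them more frequent among the risen genes, are not marked.
Saa3, chr7:46715677-46715926, minus strand: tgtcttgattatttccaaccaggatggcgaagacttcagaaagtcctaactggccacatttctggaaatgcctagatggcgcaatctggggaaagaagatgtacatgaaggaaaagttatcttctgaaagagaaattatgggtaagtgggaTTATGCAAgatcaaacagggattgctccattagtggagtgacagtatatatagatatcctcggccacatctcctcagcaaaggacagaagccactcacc
Lcn2, chr2:32387740-32387989, minus strand: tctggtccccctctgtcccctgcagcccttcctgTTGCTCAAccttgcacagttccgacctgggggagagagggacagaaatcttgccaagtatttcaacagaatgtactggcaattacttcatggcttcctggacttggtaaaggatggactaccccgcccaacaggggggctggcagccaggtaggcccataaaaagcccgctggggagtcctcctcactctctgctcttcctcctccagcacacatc
S100a9, chr3:90695722-90695971, minus strand: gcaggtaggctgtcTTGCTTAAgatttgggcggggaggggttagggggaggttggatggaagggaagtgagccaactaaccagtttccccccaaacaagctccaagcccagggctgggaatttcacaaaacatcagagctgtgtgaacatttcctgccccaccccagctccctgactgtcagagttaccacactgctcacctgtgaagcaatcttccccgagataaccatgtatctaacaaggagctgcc
Sprr2h, chr3:92385435-92385684, plus strand: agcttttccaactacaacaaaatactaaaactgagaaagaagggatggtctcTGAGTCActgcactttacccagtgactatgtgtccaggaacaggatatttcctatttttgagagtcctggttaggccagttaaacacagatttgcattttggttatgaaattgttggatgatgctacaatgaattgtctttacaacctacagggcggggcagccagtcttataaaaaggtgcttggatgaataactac
The Saa3 match begins 99 bases, the Lcn2 match 216 bases, the S100a9 match 236 bases and the Sprr2h match 198 bases before the start. Promoters of 27 of the 34 risen genes were matched by symbol, and windows of 250 bases before to 50 after the start were searched in them and in 32851 promoters of the genome. TTGCNNAA was found in 6 of the 27 (22.2%) and in 10.8% of all promoters, TGANTCA in 5 (18.5%) and 7.81%, and AGGAAGT, an ETS motif, in 8 (29.6%) and 9.35%. TATAAA was found in 9 (33.3%) and 13.6%, an NF-kB motif (GGGA, any 4 bases, CC) in 3 (11.1%) and 20.7%, and TTCNNNGAA, a STAT motif, in 2 (7.41%) and 8.3%. The shares of the 27 count genes with a match in any of their promoters, and the shares of all promoters count single promoters. The measures are thus unlike for a gene with several promoters. A match is a description of letters and shows no binding.

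Of 10 measured neutrophil markers 4 rose after 40 mJ/cm2 (0.202% of all genes rose), and of 22 monocyte and macrophage markers 0 passed in edgeR. S100a9, which with S100a8 forms calprotectin, an alarm protein of neutrophils and stressed keratinocytes, had 197, 10.8, 4.86, 454 and 1.85 CPM after 40 mJ/cm2, against 1.29, 0.512, 4.24, 0.665 and 2.38 CPM after 20 mJ/cm2. Replicate 5 lay within the range of the 20 mJ/cm2 animals and the other 4 above it, and S100a9 rose by 6.32 ± 1.24 (edgeR adjusted p = 0.0362). S100a8 rose by 5.40 ± 1.13 (adjusted p = 0.0439). Cxcr2, the receptor through which neutrophils follow chemokines, had 25.8, 0.856, 0.95, 40.6 and 1.08 CPM after 40 mJ/cm2 and at most 0.606 CPM after 20 mJ/cm2, with a log2 fold change of 5.15 ± 1.07 (adjusted p = 0.0432). Of 18 listed neutrophil markers 10 were measured and 4 rose, S100a8, S100a9, Cxcr2 and the myeloid lectin Clec4d, with 0 falling and a median of 3.91. The 8 not measured, among them Ly6g, Mpo and Elane, were too low for the filter. Since the filter keeps a gene that is high in 1 dose group alone, the 10 may be those high after 40 mJ/cm2. Their median and levels are not those of all 18. The mean log2 CPM of the 10 ran from 1.31 to 5.83 after 40 mJ/cm2, from 0.26 to 1.31 after 20 mJ/cm2 and from 0.18 to 1.11 in sham skin. In whole skin, more cells of a type and more RNA per cell cannot be told apart, and S100a8 and S100a9 stand on both the keratinocyte and the neutrophil list.

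Other myeloid genes that rose were Cd300lf (4.86 ± 1.00), Mcemp1 (3.55 ± 0.70), Sirpb1c (2.46 ± 0.47) and Slfn4 (3.39 ± 0.71). Hdc, the enzyme that makes histamine, rose by 3.89 ± 0.81 (edgeR adjusted p = 0.0428). It was the 1 of 8 measured mast cell markers that passed (0.202% of all genes rose). The mast cell proteases Cma1, Mcpt4 and Cpa3 had log2 fold changes of 0.55 ± 0.31, 0.54 ± 0.32 and 0.38 ± 0.52. Of 22 monocyte and macrophage markers 0 passed in edgeR, with a median of 0.58. At an unadjusted edgeR p under 0.05, 9 were higher and 0 lower (4.44% and 2.94% of all genes). DESeq2 called 1 (241 of 16743 over all genes) and voom 11 (3949 of 16794). Spp1, or osteopontin, came closest at 3.07 ± 0.67 (adjusted p = 0.0508).

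The cytokine Il1b, a central trigger of skin inflammation, had 145, 27.4, 8.02, 408 and 5.39 CPM after 40 mJ/cm2, against 2.58, 1.86, 8.63, 3.89 and 12.5 CPM after 20 mJ/cm2. Replicates 1, 2 and 4 were above every 20 mJ/cm2 animal, and the log2 fold change was 4.53 ± 0.96 (edgeR adjusted p = 0.0465). It was the 1 of 24 measured inflammatory cytokines and receptors that rose (0.202% of all genes rose), and 0 fell, with a median of 0.98. Il6 averaged 8.16 ± 7.68 CPM after 40 mJ/cm2 and 0.865 ± 0.932 CPM after 20 mJ/cm2 (SD, n = 5 each), with a log2 fold change of 3.42 ± 0.76 that missed the threshold (adjusted p = 0.0549). The neutrophil-attracting chemokine Cxcl2 also missed it, at 5.28 ± 1.16 (adjusted p = 0.0525), with 141 CPM in replicate 4 and 0.422 CPM in replicate 3 after 40 mJ/cm2. Of 3 measured neutrophil-attracting chemokines 0 passed in edgeR, and 2 were higher at an unadjusted p under 0.05 (4.44% of all genes). Of 15 CC chemokines 0 passed, and at that p 6 were higher and 1 was lower (2.94% of all genes were lower). DESeq2 called 1 of each list, upward (160 of 16743 over all genes).

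**Figure D3:**
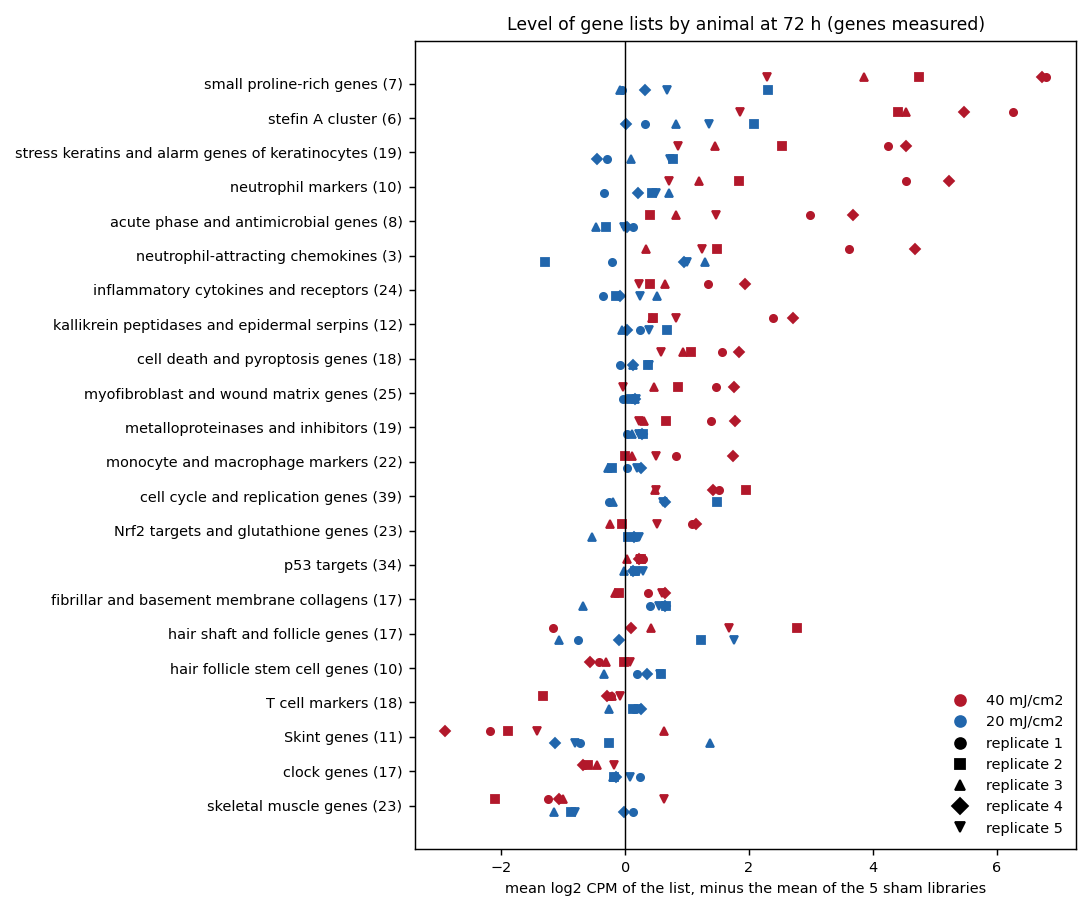
Mean log2 CPM of each gene list minus the mean of the 5 sham libraries, for each animal after 40 mJ/cm2 (red, upper row of each list) and after 20 mJ/cm2 (blue, lower row), with the number of genes measured in parentheses and 1 symbol per replicate number. Small proline-rich, stefin A, stress keratin and neutrophil lists reach their highest values in replicates 1 and 4 after 40 mJ/cm2, and the p53 list lies near 0 in all 10 animals.

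In the matrix, 2 of 25 genes of healing wounds rose (0.202% of all genes rose). Tnc, which encodes tenascin C, a matrix protein laid down at wound edges, had 2260, 610, 53.6, 3360 and 23.6 CPM after 40 mJ/cm2, against 18.4, 42.7, 14.9, 42.6 and 28.6 CPM after 20 mJ/cm2. It rose by 5.42 ± 0.98 (edgeR adjusted p = 0.0248), and replicate 5 lay within the range of the 20 mJ/cm2 animals. Prg4, the lubricating proteoglycan lubricin, had 200, 135, 49.3, 303 and 11.9 CPM after 40 mJ/cm2, against 3.88, 3.91, 12.3, 5.99 and 3.3 CPM after 20 mJ/cm2. It rose by 4.58 ± 0.66 (95% interval 3.22 to 5.94, adjusted p = 0.0042), with replicate 5 just below the highest 20 mJ/cm2 animal. Of 25 myofibroblast and wound matrix genes these 2 rose and 0 fell, with a median of 0.72, 18 positive and 7 negative folds, and 11 higher at an unadjusted p under 0.05 (4.44% of all genes). Col12a1, a fibril-associated collagen, averaged 337 CPM after 40 mJ/cm2 and 63 CPM after 20 mJ/cm2 and missed the threshold at 2.41 ± 0.52 (adjusted p = 0.0508).

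Timp1, an inhibitor of metalloproteinases, had 215, 42.8, 10.7, 396 and 19.9 CPM after 40 mJ/cm2, against 6.2, 12.9, 4.47, 15.2 and 13.3 CPM after 20 mJ/cm2, and rose by 3.71 ± 0.75 (edgeR adjusted p = 0.0368). Mmp19, a metalloproteinase, had 34.2 to 118 CPM after 40 mJ/cm2 and 20.5 to 26.9 CPM after 20 mJ/cm2, with no overlap and a log2 fold change of 1.5 ± 0.30 (adjusted p = 0.0368). These were the 2 that passed of 19 metalloproteinases and inhibitors (0.202% of all genes rose), with 0 fallen and a median of 0.67. Mmp13, a collagenase, averaged 12.9 CPM after 40 mJ/cm2 and 0.802 CPM after 20 mJ/cm2 and was not called (4.00 ± 1.05, adjusted p = 0.108).

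Of 23 measured Nrf2 targets and glutathione genes 3 rose (0.202% of all genes rose). Slc7a11, the cystine transporter that feeds glutathione synthesis, had 16.7, 7.99, 2.85, 21.7 and 1.23 CPM after 40 mJ/cm2, against 0.258, 0.448, 0.833, 0.512 and 0.55 CPM after 20 mJ/cm2, with no overlap and a log2 fold change of 4.21 ± 0.86 (edgeR adjusted p = 0.0394). The glutathione transferases Gsta4 and Gsto1 rose by 3.56 ± 0.62 (adjusted p = 0.0182) and 1.07 ± 0.20 (adjusted p = 0.0259), and glutaredoxin, Glrx, by 1.48 ± 0.25 (adjusted p = 0.0164). Gsto1 and Glrx separated the groups in every animal, with 95.7 to 199 and 60.1 to 168 CPM after 40 mJ/cm2 and 47.1 to 83.4 and 29.3 to 40.9 CPM after 20 mJ/cm2. Not all of these called genes stand on the list of Nrf2 targets and glutathione genes, where 3 of 23 rose and 0 fell. The median of the list was 0.39, and the heme oxygenase Hmox1 had 1.40 ± 0.45 (adjusted p = 0.258).

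Of 18 genes of cell death and pyroptosis 1 rose and 0 fell (0.202% and 0.0357% of all genes), with a median of 0.58. The 1 was the gasdermin C gene Gsdmc3, at 3.87 ± 0.77 (edgeR adjusted p = 0.0368). Its relatives Gsdmc and Gsdmc4 share sequence with it and had 3.31 ± 0.88 and 2.76 ± 0.70 without passing (adjusted p = 0.113 and 0.0899). Mlkl, the executioner of necroptosis, and the inflammasome sensor Nlrp3 stood at 1.12 ± 0.25 and 3.43 ± 0.79 (adjusted p = 0.0573 and 0.0579). The remaining risen genes were 2610528A11Rik (5.37 ± 0.82), the phospholipase A2 gene Pla2g4e (1.94 ± 0.37), the proprotein convertase Pcsk5 (2.13 ± 0.44), the adaptor Sh2d5 (4.60 ± 0.98) and the lysosomal alpha-galactosidase Gla (1.22 ± 0.26).

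Of the 40 genes that edgeR called, 6 were lower after 40 mJ/cm2. The split depended on the tool, with 160 up and 81 down by DESeq2 and 2010 up and 1939 down by voom, and over all genes 92 lay above and 84 below without overlap of the animals. Cd207, which encodes langerin, the defining lectin of Langerhans cells, had 2, 2.57, 2.85, 2.91 and 6.32 CPM after 40 mJ/cm2, against 10.3, 7.05, 8.41, 9.57 and 12.1 CPM after 20 mJ/cm2. The groups did not overlap, and it fell by 1.53 on the log2 scale (SE 0.33, edgeR adjusted p = 0.0465). It was the 1 of 14 Langerhans and dendritic cell markers that passed (0.0357% of all genes fell), and the median of the list was -0.076. The dendritic cell markers Itgax and Flt3 had log2 fold changes of 0.63 ± 0.29 and 0.67 ± 0.32. Scd3, a stearoyl-CoA desaturase of the sebaceous gland, had 19.8, 16, 68.6, 31.2 and 91.8 CPM after 40 mJ/cm2, against 225, 94.2, 146, 236 and 169 CPM after 20 mJ/cm2, a log2 fold change of -2.04 ± 0.42 (adjusted p = 0.0439). The other 18 measured sebaceous and skin lipid genes did not pass, and the median of the 19 was 0.065.

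Thsd4, a protein of elastic microfibrils, had 1.2 to 6.01 CPM after 40 mJ/cm2 and 8.45 to 13.2 CPM after 20 mJ/cm2 and fell by 1.66 (SE 0.30, edgeR adjusted p = 0.0259). Ptpn14, a tyrosine phosphatase that restrains the growth regulator YAP, had 46.8 to 89.2 CPM after 40 mJ/cm2 and 133 to 187 CPM after 20 mJ/cm2 and fell by 1.12 (SE 0.21, adjusted p = 0.0259). Pls1, an actin-bundling plastin, and H2-M5, a nonclassical class I histocompatibility gene, fell by 2.74 (SE 0.55) and 2.59 (SE 0.52), both with adjusted p = 0.0368. Their highest levels after 40 mJ/cm2 were 1.16 and 0.657 CPM, and their lowest after 20 mJ/cm2 were 1.95 and 0.833 CPM. None of these 6 genes had an animal of one dose within the range of the other.

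**Figure D4:**
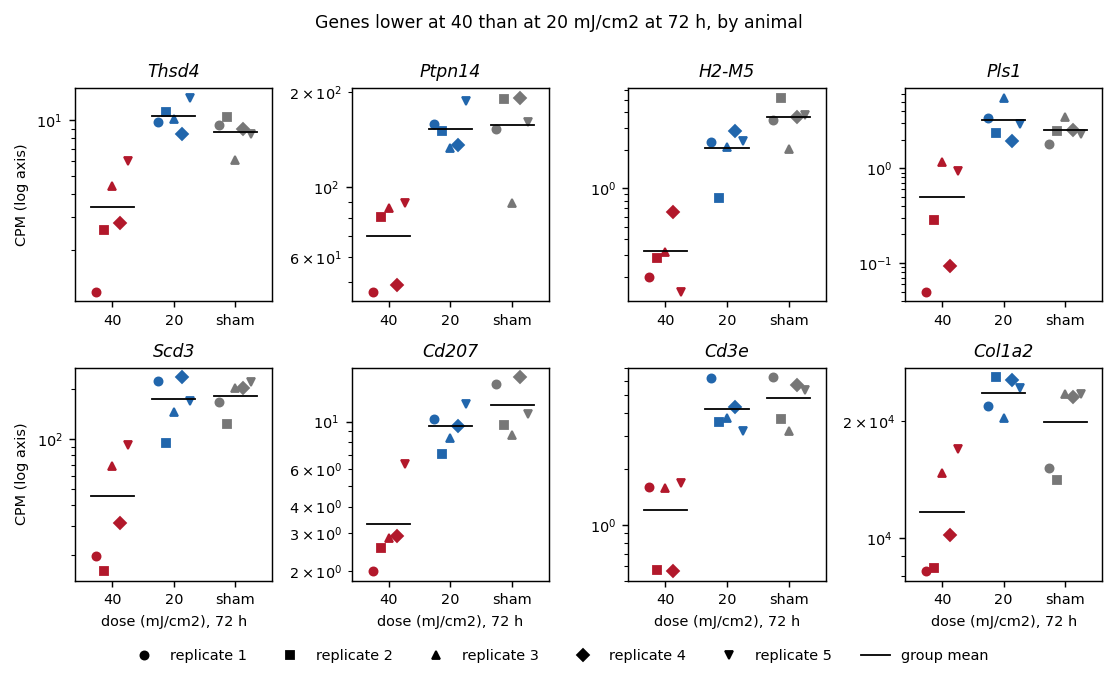
CPM on a log axis of 8 genes lower after 40 than after 20 mJ/cm2, for each animal after 40 mJ/cm2, after 20 mJ/cm2 and in sham skin at 72 h (points) with the group mean (line). Thsd4, Ptpn14, H2-M5, Pls1, Scd3 and Cd207 passed the test, Cd3e (adjusted p = 0.0546) and Col1a2 (adjusted p = 0.0579) did not, and in all 8 panels the 40 mJ/cm2 points lie below the 20 mJ/cm2 points.

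Several genes with the next smallest p-values separated the animals in the same way without passing. The T cell receptor gene Cd3e had 1.6, 0.57, 1.58, 0.563 and 1.69 CPM after 40 mJ/cm2, against 6.2, 3.59, 3.79, 4.3 and 3.21 CPM after 20 mJ/cm2, a log2 fold change of -1.76 ± 0.39 (edgeR adjusted p = 0.0546). Of 18 T cell markers 0 passed, 5 were lower at an unadjusted edgeR p under 0.05 (2.94% of all genes), and the median was -0.30. DESeq2 called 2 of them down (81 of 16743 over all genes). Trdc, the constant region of the gamma-delta receptor of epidermal T cells, had -1.16 ± 0.46 (adjusted p = 0.445). Of 11 Skint genes, a family needed by those cells, 10 had a negative fold, with a median of -0.92 and 0 passing in edgeR. At an unadjusted edgeR p under 0.05, 2 were lower (2.94% of all genes), DESeq2 called 0, and voom called 8 down (1939 of 16794 over all genes). Col1a2, a chain of type I collagen, had 8230 to 17000 CPM after 40 mJ/cm2 and 20400 to 26000 CPM after 20 mJ/cm2 with a log2 fold change of -1.06 ± 0.24 (adjusted p = 0.0579), and Col1a1 had -1.32 ± 0.44 (adjusted p = 0.282). The basement membrane chain Col4a6 stood at -1.58 ± 0.36 (adjusted p = 0.0579), and Fmod, which binds collagen fibrils, at -1.14 ± 0.28 (adjusted p = 0.0697). The median of 17 fibrillar and basement membrane collagens was 0.025, since others such as Col4a1 (0.89 ± 0.42) were on the positive side.

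The follicle stem cell receptor Lgr6, the calcium exchanger Slc24a3 and the class I gene H2-M2 stood at -1.30 ± 0.30, -1.39 ± 0.34 and -1.85 ± 0.43 (edgeR adjusted p = 0.0579, 0.07 and 0.0606). Krt2, a keratin of upper epidermal layers, differed from these in that 20 mJ/cm2 was the dose that stood apart. It had 0.7, 0.57, 2.01, 0 and 4.78 CPM after 40 mJ/cm2, against 4.91, 89.5, 5.98, 20 and 154 CPM after 20 mJ/cm2, while sham animals held 1.37 to 4.79 CPM. Its log2 fold change of -5.12 ± 1.15 was not called (adjusted p = 0.0573).

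In lists of DNA damage and growth, calls depended on the tool. Over all genes, voom called 2010 up and 1939 down of 16794, and DESeq2 160 up and 81 down of 16743. Of 34 p53 targets 0 passed in edgeR or in DESeq2 and 0 had an unadjusted edgeR p under 0.05, with a median of 0.046, while limma voom with sample weights called 8 up and 6 down. Tnfrsf10b, a death receptor, had the smallest p of the list at 0.47 ± 0.23. Of 39 cell cycle and replication genes 0 passed in edgeR or in DESeq2 and 0 had an unadjusted edgeR p under 0.05, voom called 6 up and 0 down, 36 had a positive fold and the median was 0.72. The mitotic kinase Cdk1 stood at 1.26 ± 0.62 (adjusted p = 0.704), and the list's mean log2 CPM ran from 4.26 to 5.73 after 40 mJ/cm2 and from 3.51 to 5.26 after 20 mJ/cm2. Of 17 clock genes 0 passed in edgeR or in DESeq2, voom called 1 up and 8 down, and 13 had a negative fold. At an unadjusted edgeR p under 0.05, 5 were lower (2.94% of all genes were) and 1 was higher (4.44%), with Hlf, a clock output factor, at -1.65 ± 0.51 (adjusted p = 0.219). Of 28 interferon stimulated genes 0 passed in edgeR or in DESeq2, voom called 12 up and 0 down, 4 were higher at an unadjusted edgeR p under 0.05 (4.44% of all genes), and the median was 0.50. A p that misses the threshold does not show that these genes were alike after both doses.

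Sham skin places both doses. In the same fit, edgeR called 171 genes between 40 mJ/cm2 and sham skin (1.02%), of which 135 rose (0.804%) and 36 fell (0.214%). At an unadjusted p under 0.05, 1022 were higher (6.09%) and 795 lower (4.73%). It called 0 between 20 mJ/cm2 and sham skin, where 64 genes were higher (0.381%) and 80 lower (0.476%) at an unadjusted p under 0.05. DESeq2 called 1 gene between 20 mJ/cm2 and sham skin, Krt2 (log2 fold change 4.40, adjusted p = 0.0395). The count between 40 mJ/cm2 and sham skin was 32, 353, 19 and 479 without 40 mJ/cm2 replicate 1, 3, 4 or 5, and 77, 38, 30 and 52 without sham replicate 1, 2, 4 or 5. All 40 genes called between the doses were also called, in the same direction, between 40 mJ/cm2 and sham skin, with which they share the 40 mJ/cm2 animals. The means of 20 mJ/cm2 and sham lay close together for Krt6a, Tnc and Scd3. Krt6a averaged 2450 ± 2680 CPM after 40 mJ/cm2, 86.6 ± 40.2 CPM after 20 mJ/cm2 and 82.4 ± 43.1 CPM in sham skin (SD, n = 5 each). Tnc averaged 1260 ± 1480 CPM after 40 mJ/cm2, 29.4 ± 13.1 CPM after 20 mJ/cm2 and 21.7 ± 6.81 CPM in sham skin. Scd3 averaged 45.5 ± 33.2 CPM after 40 mJ/cm2, 174 ± 58.4 CPM after 20 mJ/cm2 and 183 ± 38.4 CPM in sham skin. Of the 34 risen genes, 23 had a positive fold between 20 mJ/cm2 and sham skin, the firmest being 2610528A11Rik at 1.38 with an unadjusted edgeR p of 0.103. The number of the 34 above the highest sham animal was 2, 13, 5, 3 and 9 in replicates 1 to 5 after 20 mJ/cm2. Between 20 mJ/cm2 and sham skin the median log2 fold change was 1.3 for stefin A and 0.72 for small proline-rich genes. It was 0.15 for stress keratins and alarm genes and 0.25 for neutrophil markers.

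The same contrast at other times comes from other animals. Between 40 and 20 mJ/cm2 at 0 h edgeR called 1 gene (0.00603%), the myeloid gene Cd300lf, which averaged 0.294 ± 0.223 CPM after 40 mJ/cm2 and 4.05 ± 3.32 CPM after 20 mJ/cm2 (SD, n = 5 each, log2 fold change -4.04 ± 0.63, adjusted p = 0.0227), the opposite of its direction at 72 h. At 6 h it called 0, with 867 genes (5.29%) at an unadjusted p under 0.05. The count was 51 at 24 h (0.3%), 1418 at 48 h (8.24%) and 1, Saa3, at 96 h (0.00585%). All 40 genes had the same sign at 48 h, and 29 were called there in the same direction, which is 72.5% of the 72 h calls and 2.05% of the 48 h calls. The 11 others included Glrx and Gsto1, at 0.30 ± 0.22 and 0.0016 ± 0.20 at 48 h, and 5 of the 6 fallen genes, Cd207 being the fallen gene called at both times. At 96 h, 38 of the 40 genes were measured and 34 had the same sign. The number of animals was 5 after 40 mJ/cm2 and 4 after 20 mJ/cm2 at 48 h, and 4 after each dose at 96 h.

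**Figure D5:**
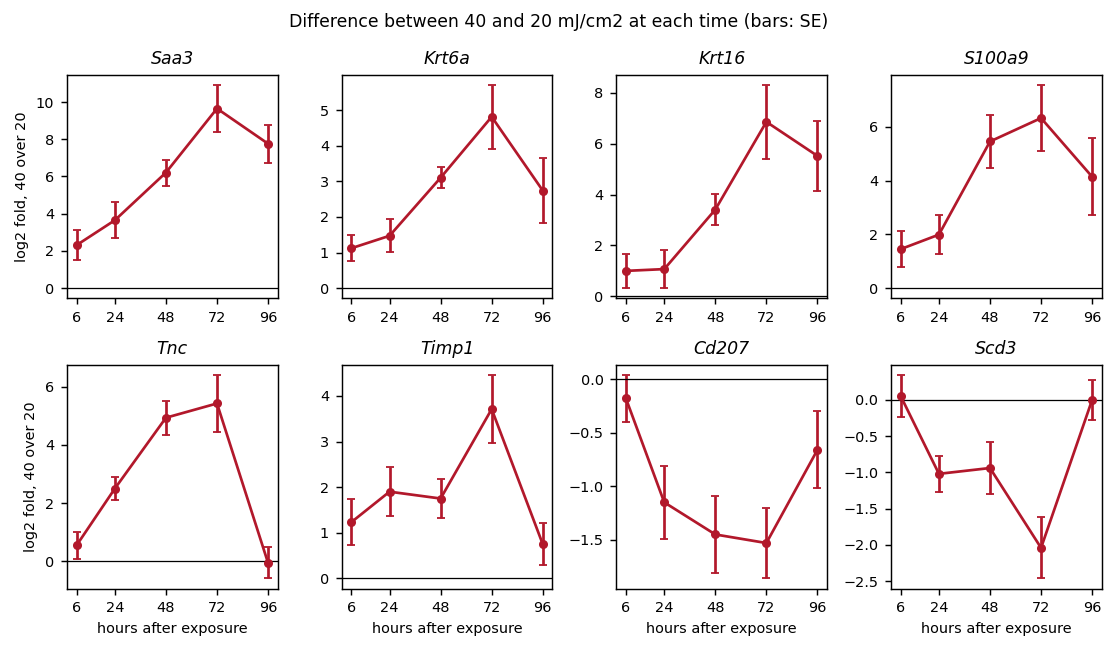
Log2 fold change of 40 over 20 mJ/cm2 at 6, 24, 48, 72 and 96 h for 8 genes (points, with SE as bars), from separate fits at each time and separate animals. Saa3 stays at 7.76 at 96 h, Tnc is near 0 at 96 h, and Cd207 and Scd3 reach their lowest value at 72 h.

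Saa3 averaged 533 ± 402 CPM after 40 mJ/cm2 and 9.17 ± 13.4 CPM after 20 mJ/cm2 at 48 h (SD). At 96 h it averaged 93.9 ± 119 CPM after 40 mJ/cm2 and 0.486 ± 0.203 CPM after 20 mJ/cm2, so it was still far apart. Krt16 averaged 999 ± 483 CPM after 40 mJ/cm2 and 102 ± 94.5 CPM after 20 mJ/cm2 at 48 h, and at 96 h 653 ± 1170 CPM after 40 mJ/cm2 and 15.2 ± 13.4 CPM after 20 mJ/cm2 (SD). Tests of the change itself found little. Between 48 and 72 h edgeR called 0 genes (1832 of 18206, or 10.1%, at an unadjusted p under 0.05) and DESeq2 likewise 0, with the smallest p for Tmprss11d, Dynlt1f, Calm4, Psma5 and S100a14, all at adjusted p = 0.281. The count was 18 without the 48 h library of 20 mJ/cm2 replicate 1. S100a14 and Psma5 had log2 fold changes of 0.67 ± 0.24 and 0.51 ± 0.14 at 72 h and of -0.98 ± 0.26 and -0.92 ± 0.29 at 48 h. Between 72 and 96 h edgeR called 1 gene (0.00549%), Tnc, whose log2 fold change was 5.42 ± 0.98 at 72 h and -0.052 ± 0.53 at 96 h, a change of 5.44 ± 1.05 (adjusted p = 0.0489). That call was lost without any 1 of the 20 mJ/cm2 animals at 72 h, without 40 mJ/cm2 replicate 1 or 4 at 72 h, and at 96 h without 40 mJ/cm2 replicate 1, 2 or 3 or 20 mJ/cm2 replicate 1, 3 or 4. The count was 7, 34 and 6 without 40 mJ/cm2 replicate 3 or 5 at 72 h or replicate 4 at 96 h. Tnc averaged 1370 ± 906 CPM after 40 mJ/cm2 and 44.4 ± 19.4 CPM after 20 mJ/cm2 at 48 h, and at 96 h 68.5 ± 46.3 CPM after 40 mJ/cm2 and 70.4 ± 35.8 CPM after 20 mJ/cm2 (SD). Next by p were Pls1, the chemokine Cxcl14, Carns1 and Col12a1, with changes of -2.91 ± 0.66, 2.32 ± 0.55, -1.53 ± 0.36 and 2.98 ± 0.72 (adjusted p = 0.227).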

How the data were processed

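Poly(A) RNA of mouse dorsal skin was made into stranded libraries and read as single-end reads, per the labels' protocols. The table that the authors deposited holds expected counts of 55416 gene identifiers in 145 libraries, and 12.6% of its entries are not whole. Per the submitters' processing notes, the build was GRCm39 and the tools were STAR 2.7.10a, fastp 0.23.0, bcl2fastq 2.20.422 and DESeq2 1.36.1. Which program counted, with which annotation and strand setting, is not given in the sources, so near copies, overlapping and antisense genes are uncertain. Symbols were taken for 52083 identifiers from GENCODE vM21 (on GRCm38), and identifiers without one held 0.0977% of the counts at 72 h. No coordinates from the files are printed.

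After rounding, the counts went into edgeR 4.0.16 under R 4.3.3 (two-sided quasi-likelihood F test, TMM, filterByExpr over the 5 dose groups of 72 h, 16794 genes). The 25 libraries of 72 h, 5 per dose, were fitted together with the title ending (R1_001 or R1) as covariate. Benjamini-Hochberg adjustment ran over all genes tested and calls made at 0.05. The SE is the fold divided by the square root of F. Changes between times used 70 libraries of 48, 72 and 96 h in 15 groups (18206 genes). DESeq2 1.42.0 and limma 3.58.1 were alternatives. A prior count of 2 was added for log2 CPM. Shallow libraries hold few counts of low genes, so the precision of their values is lowest. The labels number each animal, and among 20 pairs of libraries of the same group none was close to sampling noise (lowest chi-square per degree of freedom 7.89). The test was tested on simulated data before use.

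Genes were named by a rule: the 14 largest rises and 12 largest falls among called genes whose mean log2 CPM was 1 or more, with 1 sign in the 10 fits without 1 library, filled up by p where fewer were called. The 5 smallest p of each change between times and 2 to 6 members of each of 42 gene lists by p were added. The remaining called genes were named after their values were seen, and 1 called gene and 2 list members are counted but not reported here by name. The comparison, the lists and the rule were chosen with earlier results of these data known. Of the lists, 7 B and plasma cell markers were all below the filter.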

Additional observations from a re-analysis of the deposited data

Results flagged for a closer look

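Chance marks about 1 group of 5 values in 20 as holding a sample far from the other 4, and 11 of the 136 sets of 5 values examined did. After 40 mJ/cm2, replicate 2 held a mean log2 CPM of epidermal differentiation and barrier genes of 5.2, where the other 4 animals lay between 6.91 and 7, and of T cell markers of 0.69, where the others lay between 1.72 and 1.93. Replicate 2 was also the shallowest of the 10 libraries, at 3.13 M. Replicate 3 after 40 mJ/cm2 held a mean log2 CPM of p53 targets of 4.75, against 4.95 to 5.01 in the others.

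After 20 mJ/cm2, replicate 3 stood apart in several measures. Its mitochondrial share was 14% against 2.05 to 4.26% in the other 4 animals. Its mean log2 CPM was 1.76 for T cell markers (others 2.14 to 2.28), 8.65 for collagens (others 9.73 to 10), 3.84 for Nrf2 and glutathione genes (others 4.42 to 4.6), 5.5 for hypoxia and glycolysis genes (others 6.22 to 6.47) and 4.87 for genes of the integrated stress and unfolded protein responses (others 5.51 to 5.73). The collagen-binding gene Fmod stood at a log2 CPM of 4.92 in the same animal, against 5.69 to 5.9 in the others. Slc24a3 stood at 3.73 in replicate 2 after 20 mJ/cm2, against 4.45 to 4.66. Replicate 3 also had the highest mitochondrial share in its group after 40 mJ/cm2 and in sham skin, and the part of this in the results was not tested beyond the fits given under the processing. The difference between 40 and 20 mJ/cm2 in Tnc changed by 5.44 on the log2 scale between 96 and 72 h (edgeR adjusted p = 0.0489), which is the 1 difference between times that passed.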

How the results depend on the processing

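No paired analysis was possible because the labels number every animal individually and give no number that the doses share. Against the 40 genes called between 40 and 20 mJ/cm2, the count was 241 with DESeq2 (33 of the 40 among them). It was 3949 with limma voom and sample quality weights, 128 without the low count filter and 445 with all 145 libraries in 1 fit. With the muscle gene level as covariate it was 14 (12 of the 40 among them), and with the mitochondrial share 383. It was 0 with the 10 libraries alone (790 unadjusted), 3 within the R1_001 and 0 within the R1 title endings (389 unadjusted). Chosen after seeing the data were fits without the 2 libraries under 4 M (1 call, Saa3) and without replicate 3 of both doses (95). Without 1 library the count ran from 2 to 234. Between 40 mJ/cm2 and sham skin it was 439 with DESeq2 and ran from 19 to 479 without 1 library, between 20 mJ/cm2 and sham skin it was 1 with DESeq2. The count of changes between 48 and 72 h ran from 0 to 18 and between 72 and 96 h from 0 to 34 without 1 library, with 3 for 72 to 96 h in DESeq2 (Tnc, Pls1 and Gm12033). The difference in mitochondrial share ran from -2.71 to 0.636 percentage points without 1 library, turning positive without 20 mJ/cm2 replicate 3. Among the values of the 26 genes named by rule under other settings, 363 kept their side of the threshold, 200 lost the call and 57 gained it. In every one the direction was kept, but for the 10 fits without 1 library this was a condition of naming these genes. DESeq2 gave 4 of them (Krt16, S100a9, Tnc and Lcn2) no adjusted p. The causes of these changes were not tested. Smaller fits hold fewer animals, and the count was 170 and 234 without 40 mJ/cm2 replicate 3 or 5. Depth limits the genes with few counts, most of all in 40 mJ/cm2 replicate 2 and 20 mJ/cm2 replicate 1.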

Other observations

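Lists of other tissue and response classes, not described above, held 0 genes called by edgeR between 40 and 20 mJ/cm2. Of 14 adipocyte markers 13 had a positive fold, with a median of 0.72 and 1 at an unadjusted p under 0.05 (Fabp4, 0.97 ± 0.44), and the list's mean log2 CPM ran from 4.39 to 7.99 after 40 mJ/cm2 and from 5.23 to 7.37 after 20 mJ/cm2. All 10 Schwann cell and nerve markers had a negative fold, with a median of -0.44 and Egr2 at -0.75 ± 0.26 (adjusted p = 0.318). Of 10 hair follicle stem cell genes 9 had a negative fold, with a median of -0.46. At an unadjusted edgeR p under 0.05, 3 were lower (2.94% of all genes), among them Lhx2 and Nfatc1. Of 17 hair shaft genes 14 had a positive fold and 0 reached an unadjusted p under 0.05. Of 23 immediate early genes 18 had a negative fold, with a median of -0.36, and Egr1 averaged 133 CPM after 40 mJ/cm2 and 279 CPM after 20 mJ/cm2. Of 23 genes of the integrated stress and unfolded protein responses 21 had a positive fold, with a median of 0.39 and Asns at 0.80 ± 0.24 (adjusted p = 0.215). DESeq2 called 0 genes of these 6 lists. By voom, 7 hair follicle stem cell genes were called down, and 11 genes of the stress responses up and 1 down. Of the adipocyte, Schwann cell, hair shaft and immediate early lists voom called 1 up, 1 down, 2 down and 4 up. Over all 16794 genes voom called 2010 up and 1939 down.

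Medians of 16 basal keratinocyte, 17 endothelial, 12 fibroblast, 13 melanocyte, 16 complement and coagulation and 5 red blood cell genes were 0.10, 0.19, 0.26, 0.49, 0.44 and 0.013, against 0.014 over all genes tested. DESeq2 called 1 of the basal keratinocyte genes, upward (160 of 16743 over all genes). Of the hypoxia and glycolysis genes DESeq2 called 3, upward, and Pgam1 and Car9 stood at 0.94 ± 0.22 and 2.07 ± 0.53 in edgeR (adjusted p = 0.0663 and 0.0971). Of 23 skeletal muscle genes 0 were called by edgeR or DESeq2 and 0 had an unadjusted edgeR p under 0.05. Among them voom called 5 down (1939 of 16794 over all genes), and 18 had a negative fold.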
